A study of Mus musculus with 4 samples.

Results

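The TCL1 family genes of mouse chromosome 12 were examined in oocytes. The members were the 6 genes of the deposited expression table named Tcl1, Tcl1b1, Tcl1b2, Tcl1b3, Tcl1b4 and Tcl1b5, out of 25587 listed genes, and all 6 were present. They were chosen by symbol, with earlier results of these data known. The study sequenced ribosomal RNA-depleted total RNA from pooled oocytes of wild-type C57BL/6 mice (C57BL/6Babr in the collection protocol) to define which parts of the genome are transcribed while the oocyte acquires DNA methylation. There was 1 library per stage, from non-growing oocytes (NGO, 5 days post-partum), growing oocytes (GO1, 8 to 14 days, and GO2, 15 days) and fully grown germinal vesicle oocytes (FGO, 20 days), with no treatment or second genotype. A dUTP strand-marking protocol was used for NGO and FGO, and the ScriptSeq kit for GO1 and GO2. Changes were therefore measured within a protocol, from NGO to FGO and from GO1 to GO2, and values across protocols are given side by side only, because stage and protocol cannot be told apart there. With 1 library per stage no value had a replicate check and no p value was computed.

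TCL1 proteins are small beta-barrel proteins that bind the pleckstrin homology domain of the AKT kinases and increase AKT activity. The human gene was found through chromosome translocations that switch it on in T cell leukaemia, and in normal tissue the family is known from early lymphocytes, oocytes and early embryos. In mouse, Tcl1 is a maternal-effect gene whose product is needed for normal cleavage of the early embryo, and the Tcl1b genes are a set of tandem copies beside it.

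The 6 genes lay side by side on chromosome 12 (GRCm38), in a cluster of 76780 bases that held no other listed gene except Gm20697, described below. From left to right they were Tcl1b2 (chr12:105146014-105155225), Tcl1b1 (chr12:105159690-105166622), Tcl1b5 (chr12:105176358-105181143), Tcl1b3 (chr12:105191043-105195610), Tcl1b4 (chr12:105202422-105206993) and Tcl1 (chr12:105216750-105222793). The 5 Tcl1b genes were on the plus strand and Tcl1 on the minus strand, so that Tcl1b4 and Tcl1 had their 3′ ends towards each other across a gap of 9756 bases. The other gaps between neighbours were 4464 to 9899 bases. In the GENCODE annotation the principal transcript of each member had 4 exons, with a coding part of 116 codons in Tcl1 and Tcl1b1, 117 in Tcl1b2, 120 in Tcl1b4, 121 in Tcl1b5 and 122 in Tcl1b3, stop codon not counted.

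The Tcl1b genes were close copies of each other and distant from Tcl1. Over the 10 pairs of Tcl1b genes, 75.0 to 88.3 % of the aligned coding bases and 85.6 to 93.3 % of the aligned transcript bases were identical. Between Tcl1 and the Tcl1b genes, the coding identity was 61.6 to 65.8 %. Tcl1b3 and Tcl1b5 were the most alike, with 88.3 % of coding and 93.3 % of transcript bases identical. Of the 50-base stretches of each principal transcript, 34.1 % in Tcl1b3, 31.4 % in Tcl1b2, 20.8 % in Tcl1b5, 13.0 % in Tcl1b1 and 4.28 % in Tcl1b4 occurred letter for letter in another gene, in each case another Tcl1b gene. None of those of Tcl1 did. Of 100-base stretches, 9.23 % in Tcl1b2, 9.09 % in Tcl1b3, 1.46 % in Tcl1b5 and 0.106 % in Tcl1b1 were shared, and none in Tcl1b4 or Tcl1. The libraries were sequenced with paired-end reads of 100 bases. The alignment placed each read at a single position, so reads from the shared stretches can be split between copies. The levels of single Tcl1b genes are uncertain to that extent. Their summed counts and the level of Tcl1 do not depend on this split. Their summed RPKM can depend on it in part. Tcl1b2 was counted over 1257 exon bases and the other copies over 1031 to 1043.

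The likeness of the Tcl1b genes extended to the bases before their RefSeq starts. In the 250 bases before the RefSeq start (GRCm38.p6), the 10 pairs of Tcl1b genes were 91.9 to 99.2 % identical over the 156 to 237 bases that aligned, with Tcl1b2 and Tcl1b4 the most alike. The stretches below are shown because they hold CACCTG, a motif found in all 6 members. They are read 5′ to 3′ on the gene's strand, and capitals mark CACCTG on either strand (CAGGTG is the same motif on the other strand). It is a form of the E-box CANNTG, which by its nature also matched in all 6, and which is the site that basic helix-loop-helix factors, FIGLA of the oocyte among them, recognise.
Tcl1b1, chr12:105159596-105159673, plus strand: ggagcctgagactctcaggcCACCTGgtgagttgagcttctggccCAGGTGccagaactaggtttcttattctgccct
Tcl1b2, chr12:105146925-105147002, plus strand: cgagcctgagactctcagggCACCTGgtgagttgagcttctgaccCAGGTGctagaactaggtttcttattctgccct
Tcl1b3, chr12:105190935-105191012, plus strand: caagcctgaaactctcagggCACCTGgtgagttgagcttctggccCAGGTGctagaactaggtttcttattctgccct
Tcl1b5, chr12:105176250-105176327, plus strand: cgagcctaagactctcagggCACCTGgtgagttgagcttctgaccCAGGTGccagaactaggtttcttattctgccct
Tcl1, chr12:105222741-105222770, minus strand: ggcacaggcccaCACCTGgtagtgataaat

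Each Tcl1b promoter held 2 matches whose first letters were 25 bases apart. With the base before the start as -1, the first match began at -88 in Tcl1b1, -74 in Tcl1b2, -90 in Tcl1b3, -61 in Tcl1b4 and -74 in Tcl1b5. Tcl1 held 1 match, at -21, which lay inside the first exon of another annotated transcript of the gene. The Tcl1b4 stretch lay in an annotated exon and is not printed. The Tcl1b2 stretch lay outside annotated exons but inside the listed span of its gene, so it is not upstream of the whole gene. Of 32851 RefSeq promoters of the same length, 17.2 % held CACCTG on either strand, 2.06 % held at least 2 matches and 66.2 % held CANNTG. The stretch CACCTGgtgagttgagcttctg, 22 bases from the first match onwards, and the 25 bases agaactaggtttcttattctgccct that end the printed part occurred in all 5 Tcl1b promoters and in no other of the 32851. Among the other motifs searched on both strands, TATAAA (in 12.4 % of promoters) and the NOBOX-type letters TAATTA (4.84 %) and TAATTG (7.17 %) had no match in any member. CCAAT (33.8 %) matched in Tcl1b5 only, and the GC box GGGCGG (32.7 %) in Tcl1 only, with 2 matches. A match is a description of the letters, and binding was not measured here.

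All levels below are RPKM (read counts divided by exon length and by a total for the library), a unit that allows genes of different length to be compared. RPKM gives the share of a gene in the RNA of the pooled oocytes, and in such pools fewer cells of a type and less RNA per cell cannot be told apart. Behind the values were 61211847 to 132047780 counts on genes per library, recovered from the RPKM. Intervals are 95 % intervals for counting error only. They are likely too narrow, because the fitted library totals exceeded the number of uniquely mapped reads that the study gives. The counts on genes alone also exceeded that number in every library, so a read may have entered more than once. Each member had at least 544 counts in every library, far above the detection floor of 3 counts, and all 6 had an RPKM above 1 in every library. Of all listed genes, 36.6 to 38.5 % were above 1 in a single library. The share above 1 in every library at once was not computed.

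Tcl1, the founding member, had the highest level of the family in every library. Its RPKM was 242 in NGO, 130 in GO1, 159 in GO2 and 262 in FGO (interval 240 to 245 in NGO and 259 to 264 in FGO). Its rank by RPKM was 67 among 16558 detected genes in NGO, 136 among 16891 in GO1, 93 among 18105 in GO2 and 64 among 16706 in FGO. Only 0.805 to 0.872 % of all listed genes had an RPKM above 100, and Tcl1 was the one member that did.

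Tcl1b1 had the second highest level in all 4 libraries, with an RPKM of 38.1 in NGO, 24.1 in GO1, 41.3 in GO2 and 92.7 in FGO. Tcl1b2 had 31.0, 15.5, 27.3 and 60.7 in the same order. Both were highest in FGO, at ranks 248 and 437. Tcl1b3 had an RPKM of 15.4 in NGO, 18.0 in GO1, 28.9 in GO2 and 31.0 in FGO. Tcl1b4 had 19.9, 13.0, 17.2 and 34.1. Tcl1b5, the lowest member in every library, had 4.73, 5.92, 11.5 and 11.9. Tcl1b3 and Tcl1b5 were lowest in NGO, whereas Tcl1, Tcl1b1, Tcl1b2 and Tcl1b4 were lowest in GO1, and all 6 were highest in FGO.

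**Figure D1:**
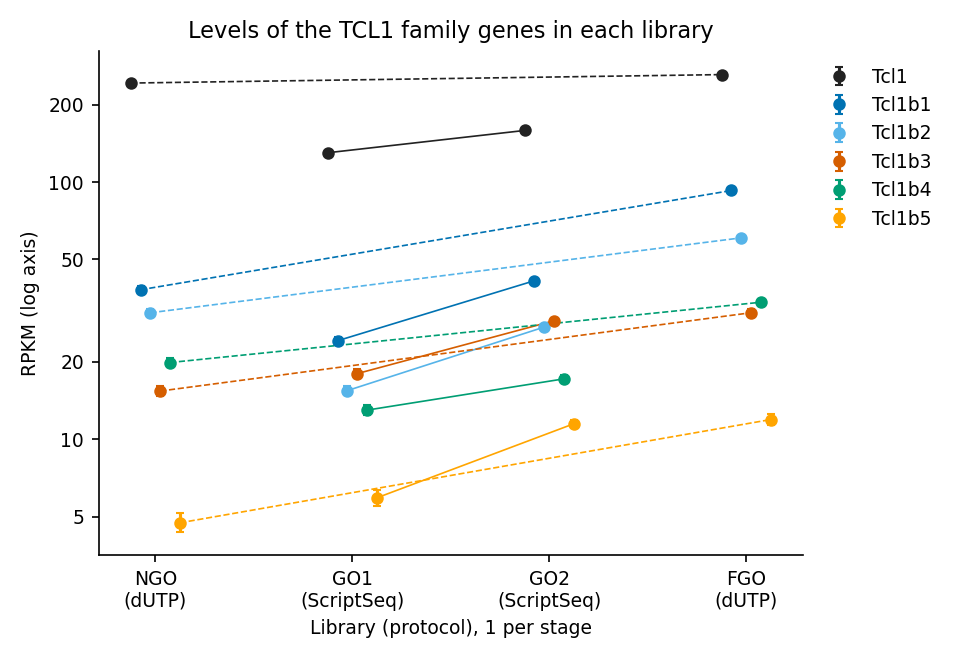
RPKM (log axis) of each TCL1 family gene in the 4 libraries, 1 point per library, with 95 % counting intervals as bars, many of them smaller than the points. Dashed lines join the dUTP libraries and solid lines the ScriptSeq libraries; Tcl1 sits between 130 and 262, above every Tcl1b gene, and Tcl1b5 between 4.73 and 11.9, below every other member.

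The order of the members was the same within a protocol and differed between protocols. In NGO and FGO it was Tcl1, Tcl1b1, Tcl1b2, Tcl1b4, Tcl1b3 and Tcl1b5 from high to low. In GO1 and GO2, Tcl1b3 stood next after Tcl1b1, above Tcl1b2 and Tcl1b4. The counting intervals of neighbours in these orders did not overlap in any library. In FGO, for example, that of Tcl1b3 reached from 30.1 to 32.0 and that of Tcl1b4 from 33.1 to 35.1, and in GO2 that of Tcl1b2 reached from 26.7 to 27.9 and that of Tcl1b3 from 28.2 to 29.6. As said above, these intervals are likely too narrow, so they do not settle the order of neighbours this close. The spread between libraries of 1 stage was not measured. Within the Tcl1b genes, the highest level exceeded the lowest 8.05 times in NGO, 4.08 times in GO1, 3.60 times in GO2 and 7.77 times in FGO.

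The weight of Tcl1 in the family differed between the libraries. The summed RPKM of the 6 genes was 352 in NGO, 206 in GO1, 285 in GO2 and 492 in FGO. Tcl1 made up 69.0 % of it in NGO, 62.9 % in GO1, 55.7 % in GO2 and 53.2 % in FGO. The summed level of the 5 Tcl1b genes was 109, 76.5, 126 and 230, so that Tcl1 exceeded the sum of its copies 2.22 times in NGO and 1.13 times in FGO, and 1.70 times in GO1 and 1.26 times in GO2. The share of Tcl1 was thus lower in the later library of both protocols. Tcl1b1 made up 10.8 % in NGO and 18.8 % in FGO, the second largest share in all 4 libraries. Tcl1b3 made up 8.72 and 10.1 % in the ScriptSeq libraries and 4.38 and 6.31 % in the dUTP libraries.

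**Figure D2:**
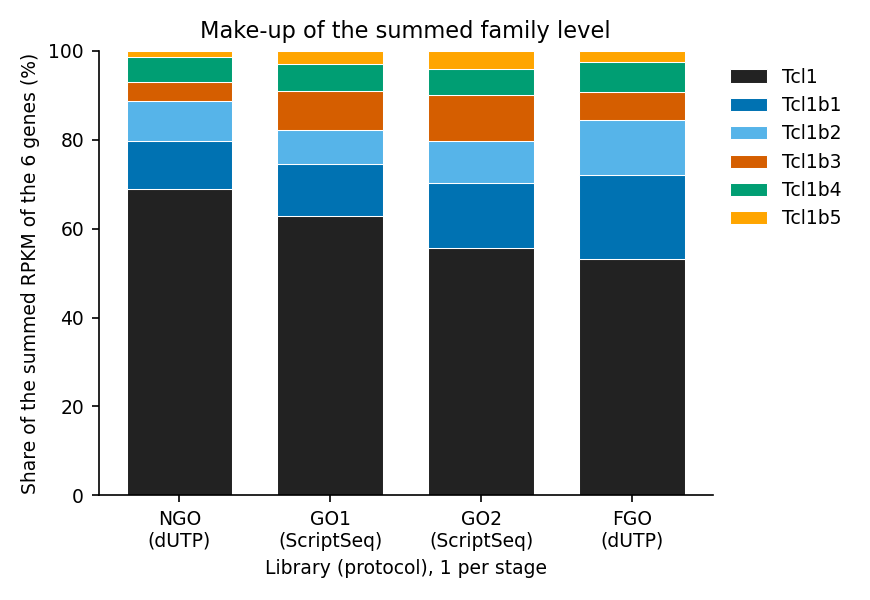
Share of each gene (%) in the summed RPKM of the 6 TCL1 family genes, 1 bar per library, colours as in the plot of levels. The Tcl1 share is 69.0 % in NGO, 62.9 % in GO1, 55.7 % in GO2 and 53.2 % in FGO.

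From NGO to FGO, the Tcl1b genes were higher in the FGO library, and Tcl1 was close to its level in the NGO library. None of the 6 members passed 4-fold in either direction, as 14.1 % of the 15249 genes tested did (8.56 % upwards and 5.51 % downwards). At 2-fold, 4 of the 6 members (Tcl1b1, Tcl1b2, Tcl1b3 and Tcl1b5) were higher in FGO and none lower, where 17.7 % of tested genes were higher and 16.7 % lower. The count of 4 depends on the scaling: Tcl1b2 and Tcl1b3 sat at the threshold, and the count was 2 with library totals and 3 with the deposited RPKM. The median log2 change was 1.04 over the 6 members and -0.01 over all tested genes.

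Tcl1b5 differed most, from 544 counts in NGO to 1483 in FGO, a log2 change of 1.39 (interval 1.24 to 1.53). Tcl1b1 came next with 4372 and 11498 counts and a log2 change of 1.33 (1.28 to 1.39). The intervals of these log2 changes overlapped, and counting error did not separate the pair. Tcl1b3, with 1776 and 3873 counts, had a log2 change of 1.06 (0.98 to 1.15). Tcl1b2, with 4313 and 9123 counts, had 1.02 (0.97 to 1.07). Tcl1b4 had the smallest difference of the copies, with 2266 and 4205 counts and a log2 change of 0.83 (0.76 to 0.91), which was still above that of 79.2 % of tested genes. Tcl1 had 49469 counts in NGO and 57722 in FGO, a log2 change of 0.16 (0.15 to 0.18), which became 0.06 with library totals. That scaling moved the median of all tested genes from -0.01 to -0.12, so that Tcl1 remained above the median.

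The difference between Tcl1 and its copies does not depend on the scaling of the libraries, because both genes were counted in the same libraries. The summed Tcl1b counts were 13271 in NGO and 30182 in FGO, and their log2 change exceeded that of Tcl1 by 0.96 (0.929 to 0.997). Gene by gene, the excess over Tcl1 was 1.22 for Tcl1b5, 1.17 for Tcl1b1, 0.90 for Tcl1b3, 0.86 for Tcl1b2 and 0.67 for Tcl1b4 on the log2 scale. The lowest bound of these intervals, that of Tcl1b4, was 0.59. For the family as a whole, the summed counts of the 6 genes changed by 0.43 (0.41 to 0.44) on the log2 scale.

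From GO1 to GO2, all 6 members were higher in the later library, by smaller steps. None passed 4-fold, as 1.76 % of the 15721 tested genes did (1.51 % upwards), and none passed 2-fold, as 6.87 % did upwards and 2.80 % downwards. The median log2 change was 0.70 over the members and 0.02 over all tested genes. Tcl1b5 again differed most, with 780 counts in GO1, 2882 in GO2 and a log2 change of 0.92 (0.81 to 1.04), above that of 92.2 % of tested genes. The log2 changes of Tcl1b2, Tcl1b1 and Tcl1b3 were 0.79, 0.74 and 0.65. Tcl1b4 had 0.37 (0.29 to 0.45) and Tcl1 0.25 (0.23 to 0.27), the smallest of the family. The excess over Tcl1 was 0.44 (0.40 to 0.48) for the summed Tcl1b counts and 0.12 (0.03 to 0.20) for Tcl1b4 alone. Because the intervals are likely too narrow, counting error may not separate Tcl1b4 from Tcl1 in this pair. In both pairs Tcl1b5 had the largest and Tcl1b4 the smallest change among the copies.

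**Figure D3:**
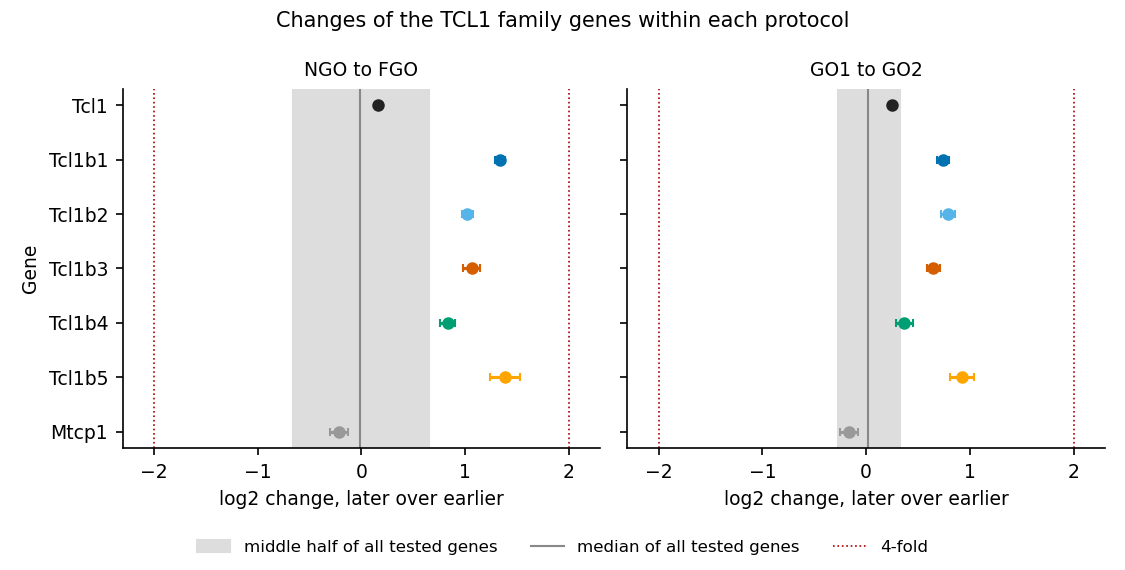
Log2 change of each TCL1 family gene and of Mtcp1 from NGO to FGO (left, dUTP) and from GO1 to GO2 (right, ScriptSeq), with 95 % counting intervals; the grey band spans the quartiles of all tested genes and dotted lines mark 4-fold. Every Tcl1b gene lies right of the band in both panels, at 0.83 to 1.39 and at 0.37 to 0.92, and no gene reaches the dotted lines.

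Across protocols, values can only be set beside each other. From NGO to GO1 the RPKM of Tcl1 went from 242 to 130, and those of Tcl1b1, Tcl1b2 and Tcl1b4 were also lower in GO1, whereas Tcl1b3 and Tcl1b5 were higher there. From GO2 to FGO, the RPKM of Tcl1b1 went from 41.3 to 92.7 and that of Tcl1b5 from 11.5 (11.1 to 11.9) to 11.9 (11.3 to 12.6), with overlapping intervals.

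The members also differed in the shape of their profiles over the 4 libraries. The distance between profiles of log2(RPKM + 0.1), each centred on its own mean, was smallest for Tcl1b1 and Tcl1b2 (0.28) and for Tcl1b3 and Tcl1b5 (0.30), and largest for Tcl1 and Tcl1b5 (1.35). Tcl1b3 and Tcl1b5 were also the pair with the highest sequence identity, and as said above their reads cannot be fully separated. Tcl1b1 and Tcl1b2, the nearest pair in profile, had 80.4 % of coding and 90.9 % of transcript bases identical. Whether shared reads bear on the profiles was not tested. Tcl1b4 was about as near to Tcl1 (0.48) as to Tcl1b1 (0.46) and Tcl1b2 (0.43).

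The genes whose profiles were nearest to that of Tcl1, among 4542 genes with an RPKM of at least 10 in their highest library, were Mrpl46 (distance 0.03), Lypd3 (0.07), Usp19 (0.07), Sec13 (0.08) and Pttg1ip (0.08). They encode a mitochondrial ribosomal protein, a surface glycoprotein, a deubiquitinase, a COPII coat and nuclear pore subunit, and a binding partner of securin. Usp19, for example, had an RPKM of 85.2 in NGO, 43.0 in GO1, 55.9 in GO2 and 89.2 in FGO. Nearest to the summed family were Arl6ip1 (0.05), E130306D19Rik (0.05), Nup85 (0.06), Sdc1 (0.06) and Mxd4 (0.08). The profiles rest on 4 libraries that share 2 protocols, so that a lower value in both ScriptSeq libraries weighs on every distance.

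Mtcp1, the further gene of the TCL1 family, lies on chromosome X and stood apart from the cluster in level. It shares its locus with Cmc4, and reads of the pair may not be separated. Its RPKM was 3.71 in NGO, 2.77 in GO1, 2.53 in GO2 and 3.08 in FGO, below Tcl1b5 in every library. Its log2 change was -0.22 (-0.31 to -0.13) from NGO to FGO and -0.16 (-0.25 to -0.08) from GO1 to GO2, opposite in sign to that of all 6 clustered genes. Scaling by library totals shifts every log2 change by -0.10 from NGO to FGO and by 0.07 from GO1 to GO2, which leaves the signs of Mtcp1 and of the 6 clustered genes as they are.

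Akt1 and Akt2, which encode AKT kinases, the binding partners of the TCL1 proteins, were present in every library at levels well below Tcl1. Akt1 had an RPKM of 11.0 in NGO, 5.91 in GO1, 8.07 in GO2 and 13.7 in FGO. Akt2 had 6.58, 1.88, 2.57 and 3.43, below Akt1 in every library. The log2 change from NGO to FGO was 0.37 (0.31 to 0.42) for Akt1 and -0.89 (-0.95 to -0.82) for Akt2.

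Of 24 genes of the AKT pathway, from PI3 kinase to the FOXO factors, all 24 were detected in every library and 21 to 22 had an RPKM above 1. Of all 25587 listed genes, 16558 to 18105 were detected in a single library and 36.6 to 38.5 % had an RPKM above 1. From NGO to FGO, 1 passed 4-fold, where 14.1 % of all tested genes did. It was Trib3, a pseudokinase that binds AKT, with 17 counts in NGO, 109 in FGO and a log2 change of 2.55. At 2-fold, 4 of the 24 passed, against 34.4 % of all tested genes. Among them, Pik3ca (log2 change 1.09), which encodes a catalytic PI3 kinase subunit, was higher in FGO, and Tsc2 (-1.55), a brake on mTOR, was lower. From GO1 to GO2 none of the 24 passed 2-fold, as 9.67 % of tested genes did. The median log2 change of the list was 0.13 and 0.04 in the respective pairs, against 1.04 and 0.70 for the TCL1 family.

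Gm20697 overlapped Tcl1 in antisense orientation. The whole 827 bases of Gm20697 (chr12:105216757-105217583, plus strand) lay inside exons of Tcl1 on the minus strand, at the 3′ end of the gene. It had 3 counts in NGO, 565 in GO1, 3626 in GO2 and 21 in FGO, which is 0.00606, 1.86, 5.13 and 0.0364 % of the Tcl1 counts. Its RPKM was 0.0502, 8.25, 27.8 and 0.325. The share was thus above 1 % in both ScriptSeq libraries and below 0.1 % in both dUTP libraries, and protocol and stage cannot be told apart there. From GO1 to GO2 its log2 change was 1.72 (1.59 to 1.85), and from NGO to FGO it went from the floor of 3 counts to 21. No source used here names the strand setting of the counting, and how many of these reads come from Tcl1 was not tested. No other member overlapped a listed gene.

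Around the cluster, 11 listed genes lay wholly within 500 kb, Gm20697 among them, and 7 of them had an RPKM above 1 in a library. To the left, Glrx5, a mitochondrial glutaredoxin for iron-sulphur cluster assembly 105 kb away, had the highest level of the neighbours in NGO and FGO, with 109 in NGO, 53.3 in GO1, 62.0 in GO2 and 119 in FGO. Its log2 change was 0.18 in both pairs, near that of Tcl1. 4831426I19Rik, 136 kb away, had an RPKM of 3.43, 2.67, 4.29 and 9.21, with log2 changes of 1.48 and 0.65. Dicer1, which makes the small RNAs of the oocyte and lies 394 kb away, had 44.3, 73.0, 62.2 and 42.4.

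To the right there was no gene above an RPKM of 1 until Bdkrb1, a bradykinin receptor gene 381 kb away, with 2.31, 0.984, 1.38 and 5.25 and log2 changes of 1.24 and 0.45. Atg2b, an autophagy gene, was between 4.48 and 5.07, and 4933433P14Rik between 0.838 and 1.29. Glrx5 and Dicer1 were the only neighbours outside the cluster whose RPKM exceeded that of Tcl1b5 in every library.

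**Figure D4:**
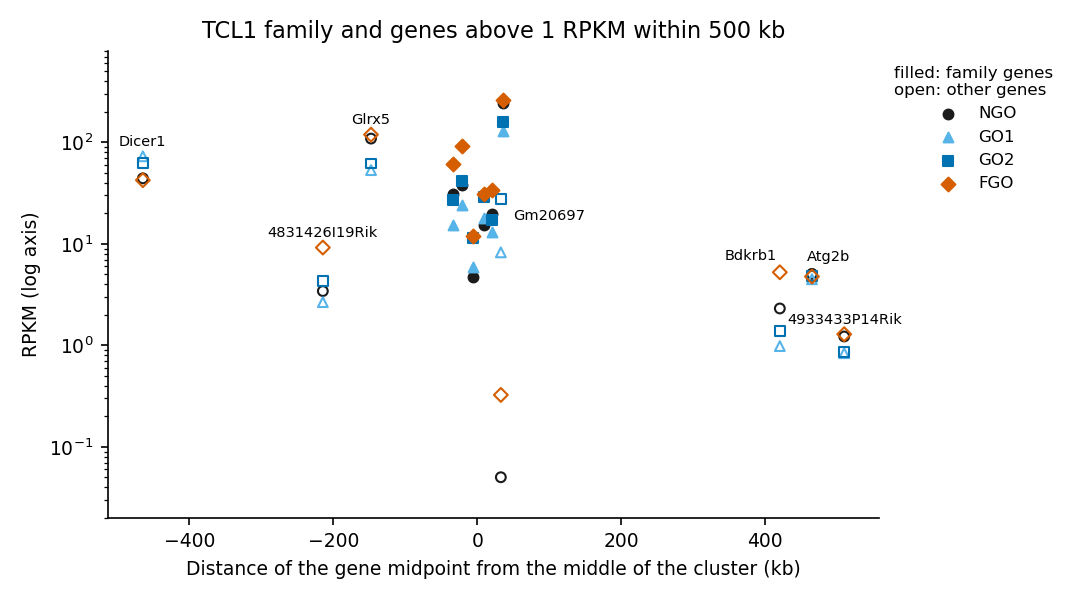
RPKM (log axis) of the TCL1 family genes (filled) and of the other genes with an RPKM above 1 within 500 kb (open) against the distance of the gene midpoint from the middle of the cluster in kb, with 1 symbol per library. Glrx5 and Dicer1 are above Tcl1b5 in every library, and Gm20697 spans from 0.0502 in NGO to 27.8 in GO2.

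The marker genes were checked because TCL1 genes are also known from lymphocytes. All 12 oocyte markers had an RPKM above 1 in every library, with Zp2, a zona pellucida gene, highest in each. Of all listed genes, 36.6 to 38.5 % were above 1 in a single library. Their summed RPKM was 8204 in NGO, 5746 in GO1, 5450 in GO2 and 5208 in FGO. From NGO to FGO, 4 of the 12 were lower past 2-fold and 1 higher, against 16.7 and 17.7 % of all tested genes. The 4 were Zp2, Zp3, Ddx4 and Figla, and the 1 was Bmp15. Zp2 had an RPKM of 2261 in NGO and 1052 in FGO, Zp3 1772 and 820, and Bmp15 131 and 414. Whether the NGO pool also held growing oocytes was not tested. Figla, the E-box factor named above, was the 1 past 4-fold, with an RPKM of 102 in NGO, 38.9 in GO1, 23.6 in GO2 and 20.6 in FGO and a log2 change of -2.25. Of 9 B and T lymphocyte markers, Ms4a1 alone had an RPKM above 1, with 1.46 in NGO, 3.77 in GO1, 7.40 in GO2 and 16.9 in FGO. The other 8 were at 0.0220 or below in every library, with Cd3e and Cd3g at 0 in all 4. The summed RPKM of the whole list was 1.48 in NGO, 3.82 in GO1, 7.41 in GO2 and 17.0 in FGO, nearly all of it from Ms4a1, whose log2 change from NGO to FGO was 3.58. The part of lymphocytes in the Tcl1b changes was not tested.

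Markers of other ovarian cells also differed between NGO and FGO. The summed RPKM of 8 granulosa markers was 5.45 in NGO, 11.2 in GO1, 15.2 in GO2 and 17.8 in FGO, mostly Nr5a2 and Cyp19a1, with 1 to 3 of 8 above 1 and none at 0. From NGO to FGO, 5 of the 8 were higher past 2-fold and 1, Foxl2 (log2 change -1.34), was lower, against 17.7 and 16.7 % of all tested genes. The summed RPKM of 4 endothelial markers was 3.37, 7.22, 11.1 and 12.4, from Pecam1 and Tek, with Cdh5 the other way, at 0.0408 in NGO and 0 in FGO. That of 6 stromal markers was 5.51 in NGO, led by Col1a1, and 0.245 or below in the other libraries, where Lum was at 0. The part of other cells in the changes from NGO to FGO was not tested.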

How the data were processed

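RNA of 4 oocyte pools, 1 library per stage, was analysed. The authors trimmed reads with Trim Galore 0.2.8, aligned them to GRCm38 with TopHat2 2.0.9 (versions from the submitters' processing notes) and deposited linear RPKM values for 25587 genes, although the table is named for read counts. The counting program, annotation and strand setting are not given in the sources used here. Counts were recovered as the whole numbers that fit RPKM, exon length and a fitted library total, and at least 99.4 % of single-exon values came out whole (tolerance 0.02 counts). No count model was run. Log2 changes were taken over genes with at least 20 counts in a pair, with a prior count of 1 and a trimmed-mean scaling (30 % of ratios and 5 % of mean expression trimmed), against a threshold of 4-fold. The interval of a difference from Tcl1 is a normal approximation for counting error. The scripts were tested on simulated data. The tools were Python 3.11.15, Biopython 1.88, scipy 1.17.1, pandas 2.3.3, matplotlib 3.10.9 and numpy 2.4.6.

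Transcripts came from GENCODE (M21) and promoters from RefSeq (GRCm38.p6), and all 6 members matched in both. The genes named were every member, Mtcp1, AKT kinases and AKT pathway genes past a fold threshold, neighbours with an RPKM above 1, the 5 nearest profiles and marker genes. The members and lists were chosen with earlier results of these data known. Alternatives were other scalings, fold thresholds, count minimums, pseudocounts and windows. Protein sequences and transcripts outside the table were not analysed here, and values of some listed genes are not reported here.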

Additional observations from a re-analysis of the deposited data

How the results depend on the processing

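Each log2 change of a member kept its direction under all alternatives tried, which were scaling by library totals, median-of-ratios scaling and the deposited RPKM (18 values in each pair), and 9 of them from NGO to FGO and 5 from GO1 to GO2 left the counting interval. No member passed 4-fold under the count minimums and scalings tried, and with a 2-fold threshold 4 did from NGO to FGO. The change of the summed family from NGO to FGO was 0.43, and it was 0.32 with library totals, 0.41 with median-of-ratios scaling and 0.48 from summed RPKM with a pseudocount of 0.1 or of 0.01, which weighs the shorter Tcl1b genes more than summed counts do. From GO1 to GO2 it was 0.38, and it was 0.45 with library totals and 0.46 from summed RPKM with either pseudocount. Within 250 kb, 3 neighbours had an RPKM above 1, and 1 of the 5 genes nearest to Tcl1 remained when genes with an RPKM of at least 1 were admitted. No paired analysis was possible because each stage had 1 library. Depth did not limit the detection of any member, and the absence of replicates limits every change.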
